A study of Solanum lycopersicum with 120 samples.

Results

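The 8 cytokinin oxidase (CKX) genes of tomato described here were taken by their identifiers as members of one gene family from the 34075 genes listed in each of 2 deposited tables of read counts. They are *CKX5* (Solyc04g016430), cytokinin oxidase2 (Solyc01g088160), cytokinin oxidase4 (Solyc04g080820), Solyc08g061920, Solyc08g061930, Solyc10g017990, Solyc12g008900 and Solyc12g008920, and no name was used for the last 5.

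RNA-seq libraries were made of 4 organs, the cotyledons, the first leaf, the hypocotyl and the epicotyl, of tomato seedlings in the M82 (*sp*) background. Compared after 6 h were the genotypes *slpifq*, which carries CRISPR alleles of *SlPIF4*, *SlPIF7a*, *SlPIF7b* and *SlPIF8a*, *slpif8a*, which carries only that of *SlPIF8a*, and WT. WT was also sampled after 3 and 24 h. Every plant grew for 12 days at 24 °C in white light of about 200 µmol m-2 s-1 (24WL). Plants then received added far-red light to an R/FR of 0.6 from 2 h after the start of the day (24FR), or stayed in 24WL until the same hour. The plants were kept in long days with a dark night, and far-red was added in the daytime only. Samples of 24 h had therefore passed a night and were not under far-red throughout. Each group had 3 replicates, each pooled from 4 seedlings, which makes 120 libraries. Both tables hold the same 24 WT libraries of 6 h. Each mutant genotype is known here by a single set of alleles, and the libraries are of whole organs, in which fewer cells of a type and less RNA per cell cannot be told apart.

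Cytokinin oxidases, also called cytokinin dehydrogenases, remove the side chain of cytokinins and so inactivate them irreversibly. Cytokinins promote cell division and leaf growth, and their level is set by synthesis through isopentenyltransferases, by activation through phosphoribohydrolases of the LOG type, and by this breakdown. In Arabidopsis, cytokinin breakdown by a CKX enzyme is part of the arrest of leaf growth under light of low red to far-red ratio (R/FR). Phytochrome-interacting factors (PIFs), of which *slpifq* carries mutations in 4, are transcription factors that act in the response of plants to such light.

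The deposited counts on genes summed to 15905765 in the shallowest library and 33913236 in the deepest. Levels are given as CPM, the counts scaled to a common total of the reads on tested genes with TMM factors, in which 3 counts, taken as the floor, equal 0.071 to 0.222 CPM depending on the library. Tests were made on genes that exceeded 5 CPM in 3 or more libraries, of which there were 17460 in the table of genotypes and 17469 in that of times. A gene was called at an adjusted p under 0.05 (edgeR's quasi-likelihood test) where its log2 fold change was also over 1 or under −1. Each library was correlated with the mean profile of every group over the 2000 most variable tested genes, leaving the library out of its own mean. For every library the nearest mean was of its own organ. It was that of its own group for 44 of the 72 libraries of the genotype table and 71 of the 72 of the time table. The mRNA of the mutated genes does not check the genotype labels, since the levels of *SlPIF8a* were 13.3 to 236 CPM in *slpifq*, 17.9 to 243 CPM in *slpif8a* and 9.90 to 315 CPM in WT.

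Of the 8 members, 4 passed the filter on low counts. Over the 120 libraries, 129766 reads were counted on Solyc08g061930, 49865 on cytokinin oxidase4, 48616 on cytokinin oxidase2 and 13263 on *CKX5*. These totals are not compared as levels, because no gene lengths were used. Solyc12g008900 had 463 reads in 87 libraries and never more than 18 in one. Of these reads, 278 came from cotyledons, 106 from first leaves, 56 from hypocotyls and 23 from epicotyls, and the gene was above the floor in 26 of the 30 cotyledon libraries. Solyc08g061920 and Solyc10g017990 had 5 reads each and Solyc12g008920 had 4, with at most 2 in any library, so that their expression was not detectable at this depth. By their identifiers Solyc08g061920 lies near Solyc08g061930 and Solyc12g008920 near Solyc12g008900. Whether such neighbours share reads was not tested.

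After 6 h, *CKX5* and cytokinin oxidase4 were called higher in 24FR than in 24WL in all 4 organs of WT, and neither cytokinin oxidase2 nor Solyc08g061930 was called in any. Of all genes tested, 1.44% were called higher in the cotyledons, 0.876% in first leaves, 1.95% in the hypocotyl and 1.19% in the epicotyl. In WT cotyledons *CKX5* stood at 22.0, 21.6 and 16.1 CPM in 24FR, against 3.92, 4.80 and 6.30 CPM in 24WL. Every 24FR replicate exceeded every 24WL replicate, and the log2 fold change was 1.98 ± 0.31 (SE, adjusted p = 3.65e-06). In the first leaf the levels of *CKX5* were 10.1, 6.50 and 6.89 CPM in 24FR and 2.73, 3.21 and 2.78 CPM in 24WL, a log2 fold change of 1.43 (adjusted p = 0.00146). In the hypocotyl they were 5.14, 6.37 and 3.96 CPM in 24FR and 1.47, 1.67 and 1.75 CPM in 24WL, a log2 fold change of 1.66 (adjusted p = 0.000111). In neither organ did the replicates overlap between the lights. In the epicotyl, where *CKX5* was lowest, 24FR gave 2.04, 1.65 and 2.23 CPM and 24WL gave 0.533, 0.311 and 1.52 CPM, a log2 fold change of 1.31 (adjusted p = 0.00561). The third 24WL library of the epicotyl lay close under the 24FR replicates. The call in this organ was lost without 24WL replicate 1 (log2 fold change 1.10, adjusted p = 0.0544) or replicate 2 (0.92, adjusted p = 0.083), while without replicate 3 the log2 fold change was 2.22.

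The folds of cytokinin oxidase4 were larger than those of *CKX5* in each WT organ. In WT cotyledons it had 64.2, 92.2 and 106 CPM in 24FR, against 1.33, 3.53 and 9.65 CPM in 24WL, a log2 fold change of 4.13 ± 0.64 (adjusted p = 2.57e-06). The 24WL replicates spread widely, but the highest of them was far below the lowest 24FR replicate. In the first leaf, the organ with most of its reads, 24FR gave 76.0, 87.8 and 142 CPM and 24WL gave 7.49, 20.1 and 18.1 CPM (log2 fold change 2.75, adjusted p = 0.000697). In the hypocotyl the levels were 20.5, 21.1 and 28.2 CPM in 24FR and 1.14, 3.24 and 2.85 CPM in 24WL (log2 fold change 3.27, adjusted p = 9.18e-05). Again the replicates of the lights stood apart. The epicotyl had 2.24, 2.74 and 2.33 CPM in 24FR and 0.207, 0.623 and 0.642 CPM in 24WL. Although these did not overlap either, the log2 fold change of 2.28 passed only narrowly (adjusted p = 0.0426), and leaving out any one of the 6 epicotyl libraries ended the call (adjusted p = 0.0642 to 0.163). All fits without a library also set the dispersion, the assumed spread of the counts, otherwise than the main fit. Whether the missing library or this setting ended a call was not tested.

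**Figure D1:**
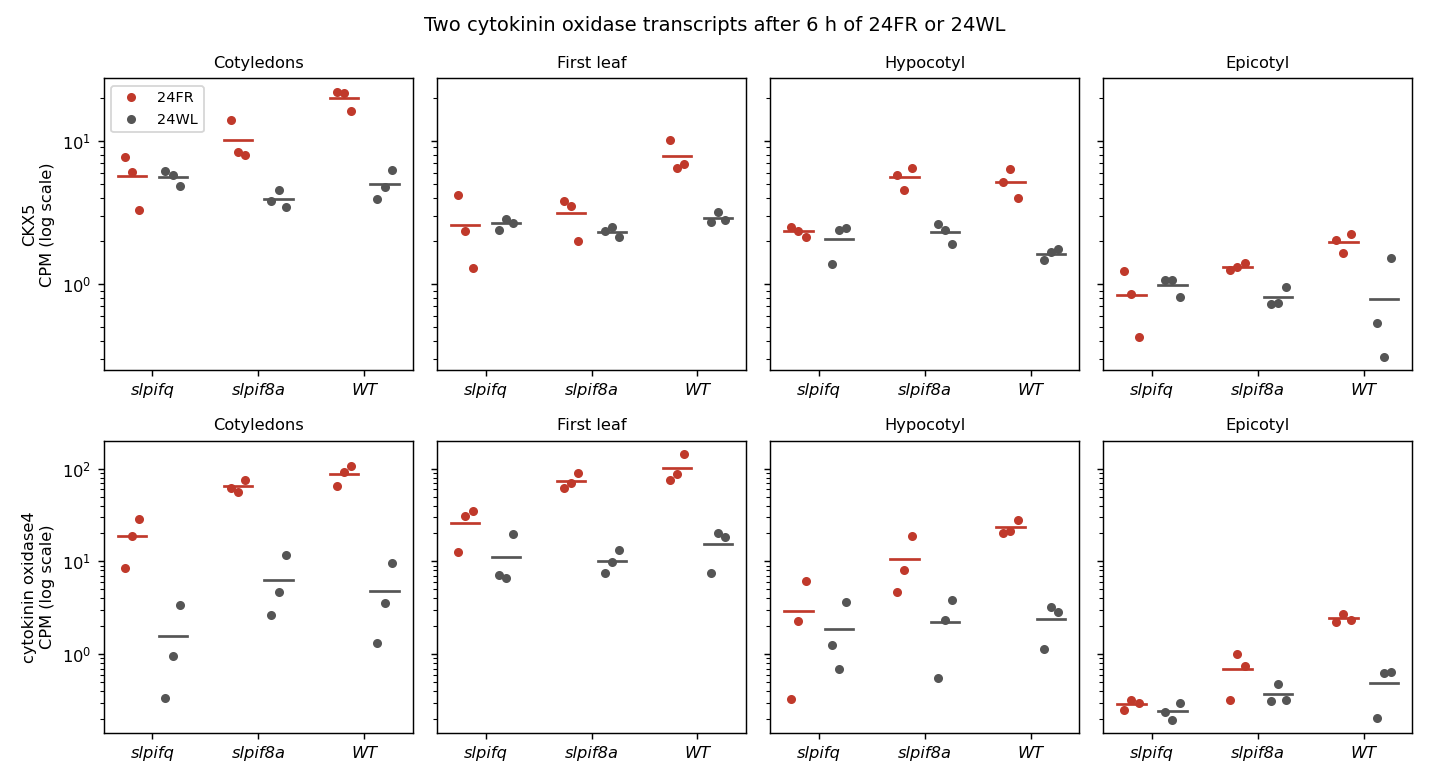
Levels of *CKX5* (top) and cytokinin oxidase4 (bottom) in every library of 6 h, in CPM on log axes, by organ and genotype, with 24FR left of 24WL. Points are replicates in order of their number and bars are means of 3; in WT every 24FR point lies above every 24WL point, whereas the points of *CKX5* in *slpifq* overlap in all 4 organs.

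*CKX5* was not called for light in any organ of *slpifq*. Its log2 fold changes were 0.04 in the cotyledons, −0.05 in first leaves, 0.17 in the hypocotyl and −0.21 in the epicotyl (lowest adjusted p = 0.808). In the cotyledons of *slpifq* it stood at 7.74, 6.03 and 3.31 CPM in 24FR and 6.11, 5.79 and 4.81 CPM in 24WL. The replicates of the lights overlapped here and in the other 3 organs. *CKX5* was then called lower in *slpifq* than in WT under 24FR in every organ, where 0.659% of all genes tested were called lower in the cotyledons, 0.298% in first leaves, 0.939% in the hypocotyl and 0.458% in the epicotyl. Against the WT levels above, 24FR gave 4.16, 2.34 and 1.29 CPM in first leaves of *slpifq*, 2.52, 2.35 and 2.14 CPM in its hypocotyl and 1.23, 0.860 and 0.426 CPM in its epicotyl. As log2 fold changes, *slpifq* over WT gave −1.80 ± 0.31 in the cotyledons (adjusted p = 4.95e-05), −1.61 ± 0.32 in first leaves (adjusted p = 0.00154), −1.14 ± 0.32 in the hypocotyl (adjusted p = 0.0116) and −1.20 ± 0.35 in the epicotyl (adjusted p = 0.0244). The call in the hypocotyl was lost without WT 24FR replicate 2 (−0.96, adjusted p = 0.0709). That in the epicotyl was lost without WT 24FR replicate 1 or 3 or *slpifq* 24FR replicate 2 or 3 (adjusted p = 0.0638 to 0.187).

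Whether the response itself differed between the genotypes was tested as an interaction, which subtracts the log2 response of WT from that of *slpifq*. It was called for *CKX5* in the cotyledons, at −1.95 ± 0.44 (adjusted p = 0.00526), where 5.04% of all genes tested were called, 2.92% as lower. Leaving out any library of this comparison kept the call, with values of −2.24 to −1.67, but a fit to the cotyledon libraries alone did not (−1.93, adjusted p = 0.0923). Of all genes tested, 0.309% were called in first leaves, 1.34% in the hypocotyl and 0.51% in the epicotyl, where the interaction of *CKX5* was −1.48 (adjusted p = 0.222), −1.49 (adjusted p = 0.101) and −1.52 (adjusted p = 0.265) in the same order, none of them called. The hypocotyl value was called in a fit to that organ alone (−1.49, adjusted p = 0.0408) and the first leaf value under limma (−1.25, adjusted p = 0.0497). Without WT 24WL replicate 3 the value in the epicotyl was −2.44 (adjusted p = 0.00762), and without *slpifq* 24FR replicate 1 that in first leaves was −1.98 (adjusted p = 0.0425).

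Cytokinin oxidase4, unlike *CKX5*, was called higher in 24FR in the cotyledons of *slpifq*. It had 8.45, 18.9 and 28.8 CPM in 24FR and 0.340, 0.951 and 3.36 CPM in 24WL, without overlap, a log2 fold change of 3.59 ± 0.71 (adjusted p = 0.000187). In the fit without the replicate number as a block this was the only call for light in the family in *slpifq*, where 1.63% of all genes tested were called higher in the cotyledons, 0.149% in first leaves, 0.699% in the hypocotyl and 0.326% in the epicotyl. The interaction was −0.53 ± 0.96 (adjusted p = 0.781), so no difference of the response from WT could be shown. In the first leaf of *slpifq* 24FR gave 12.6, 30.9 and 34.7 CPM and 24WL gave 7.16, 6.62 and 19.9 CPM (log2 fold change 1.20, adjusted p = 0.293). In the hypocotyl the levels of *slpifq* were 0.327, 2.26 and 6.13 CPM in 24FR and 1.24, 0.692 and 3.67 CPM in 24WL (log2 fold change 0.63, adjusted p = 0.668). These replicates overlapped in both organs. In the epicotyl of *slpifq* cytokinin oxidase4 was at 0.252, 0.322 and 0.295 CPM in 24FR and 0.238, 0.197 and 0.298 CPM in 24WL, not far above the floor. The interaction was −1.55 in first leaves (adjusted p = 0.667), −2.65 in the hypocotyl (adjusted p = 0.194) and −2.02 in the epicotyl (adjusted p = 0.849), and without *slpifq* 24FR replicate 3 of the hypocotyl, the highest of its group, it was −3.77 there (adjusted p = 0.0364).

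Between the genotypes, cytokinin oxidase4 was called lower in *slpifq* than in WT under 24FR in all 4 organs. The log2 fold changes were −2.23 ± 0.57 in the cotyledons (adjusted p = 0.00639), −1.96 ± 0.56 in first leaves (adjusted p = 0.0412), −3.02 ± 0.63 in the hypocotyl (adjusted p = 0.000603) and −3.06 ± 0.90 in the epicotyl (adjusted p = 0.0271). The replicates of *slpifq* lay below those of WT in each organ. Only the call in the hypocotyl held whichever library was left out. That in first leaves was lost without any of its 6 libraries, in fits of the other dispersion setting (adjusted p = 0.0586 to 0.170). It was also lost under DESeq2's Wald test (adjusted p = 0.0911). That in the epicotyl was lost without WT 24FR replicate 2 or 3 or any *slpifq* replicate (adjusted p = 0.0598 to 0.115), and that in the cotyledons without *slpifq* replicate 1 (−1.88, adjusted p = 0.0541) and in a fit to the cotyledons alone (−2.22, adjusted p = 0.0965). In 24WL its levels in the cotyledons of *slpifq* and WT overlapped, and the log2 fold change of −1.70 ± 0.75 was not called (adjusted p = 0.491).

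In *slpif8a*, *CKX5* was called for light in the cotyledons, at 14.0, 8.29 and 7.95 CPM in 24FR and 3.79, 4.55 and 3.44 CPM in 24WL (log2 fold change 1.36, adjusted p = 0.00156). It was also called in the hypocotyl, at 5.80, 4.55 and 6.44 CPM in 24FR and 2.62, 2.38 and 1.91 CPM in 24WL (log2 fold change 1.28, adjusted p = 0.00285). Both organs were without overlap. In the first leaf of *slpif8a* the levels of *CKX5* were 3.82, 3.53 and 1.99 CPM in 24FR and 2.34, 2.50 and 2.13 CPM in 24WL (log2 fold change 0.42, adjusted p = 0.518). In the epicotyl they were 1.26, 1.31 and 1.40 CPM in 24FR and 0.727, 0.744 and 0.957 CPM in 24WL (log2 fold change 0.71, adjusted p = 0.177). The epicotyl replicates did not overlap, yet the difference missed the threshold. Cytokinin oxidase4 was called in 3 organs of *slpif8a*, with log2 fold changes of 3.34 in the cotyledons (adjusted p = 5.84e-05), 2.86 in first leaves (adjusted p = 0.00132) and 2.24 in the hypocotyl (adjusted p = 0.00944). This makes 5 calls of the family in *slpif8a*, where 1.51% of all genes tested were called higher in the cotyledons, 0.67% in first leaves, 1.17% in the hypocotyl and 1.48% in the epicotyl. In the hypocotyl, 24FR gave 4.69, 8.11 and 18.9 CPM of cytokinin oxidase4 and 24WL gave 0.547, 2.33 and 3.80 CPM, and the call was lost without 24WL replicate 1 (1.79, adjusted p = 0.089) or 24FR replicate 3 (1.52, adjusted p = 0.173). In the epicotyl the log2 fold change was 0.92 (adjusted p = 0.599).

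Between *slpif8a* and WT in 24FR, *CKX5* in first leaves was the only member called in the fit described above, at a log2 fold change of −1.33 ± 0.32 (adjusted p = 0.0293). Of all genes tested, 0.137% were called lower in the cotyledons, 0.0573% in first leaves, 0.0916% in the hypocotyl and 0.126% in the epicotyl. Leaving out any one of the 6 libraries, in fits of the other dispersion setting, ended this call (adjusted p = 0.0538 to 0.237). In the cotyledons *CKX5* reached −0.98 (adjusted p = 0.0662), and was called without WT 24FR replicate 3 (−1.11, adjusted p = 0.0404) or *slpif8a* 24FR replicate 1 (−1.29, adjusted p = 0.0169). In the hypocotyl the levels of *slpif8a* and WT differed little (0.12, adjusted p = 0.929). Cytokinin oxidase4 was not called between these genotypes, with −0.45 in the cotyledons, −0.46 in first leaves, −1.14 in the hypocotyl and −1.78 in the epicotyl (lowest adjusted p = 0.17). A fit to the epicotyl libraries alone did call it there (−1.79, adjusted p = 0.00777). With the replicate number as a block it was called in the epicotyl (−1.88, adjusted p = 0.0146) and hypocotyl (−1.33, adjusted p = 0.0207). Of the 16 interactions of *slpif8a* with light none was called by edgeR or by any alternative, and 2 had an unadjusted p under 0.05, while 0.172% of all genes tested were called in the cotyledons, 0.0687% in first leaves, 0.0745% in the hypocotyl and 0.0859% in the epicotyl.

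Between *slpifq* and *slpif8a* in 24FR, *CKX5* was called lower in the hypocotyl of *slpifq* (−1.26 ± 0.31, adjusted p = 0.0221). This was the only call of the family in the fit described above. Of all genes tested, 0.584% were called lower in the cotyledons, 0.103% in first leaves, 0.378% in the hypocotyl and 0.286% in the epicotyl. The call was lost without *slpif8a* replicate 1 or 3 or any *slpifq* replicate (adjusted p = 0.0624 to 0.154). Cytokinin oxidase4 was lower by −1.79 in the cotyledons (adjusted p = 0.0504) and by −1.88 in the hypocotyl (adjusted p = 0.134), neither called. Without *slpifq* replicate 3 both were, at −2.24 (adjusted p = 0.0443) and −3.0 (adjusted p = 0.0237). The cotyledon value was also called under limma (−1.88, adjusted p = 0.0178) and with the filter at CPM above 1 (−1.80, adjusted p = 0.0494). With the replicate number as a block, cytokinin oxidase4 was called in the cotyledons (−1.97, adjusted p = 9.45e-05), first leaf (−1.61, adjusted p = 0.0078) and hypocotyl (−1.92, adjusted p = 0.00215). In 24WL no member was called by edgeR or by any alternative in *slpifq* against WT or in *slpif8a* against WT, with 16 tests each, of which 1 had an unadjusted p under 0.05 in each comparison. Of all genes tested, 0.103% were called between *slpifq* and WT in 24WL in the cotyledons, 0.0802% in first leaves, 0.137% in the hypocotyl and 0.235% in the epicotyl. Between *slpif8a* and WT in 24WL the shares were 0.0745% in the cotyledons, 0.0859% in both the first leaf and the hypocotyl, and 0.475% in the epicotyl.

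**Figure D2:**
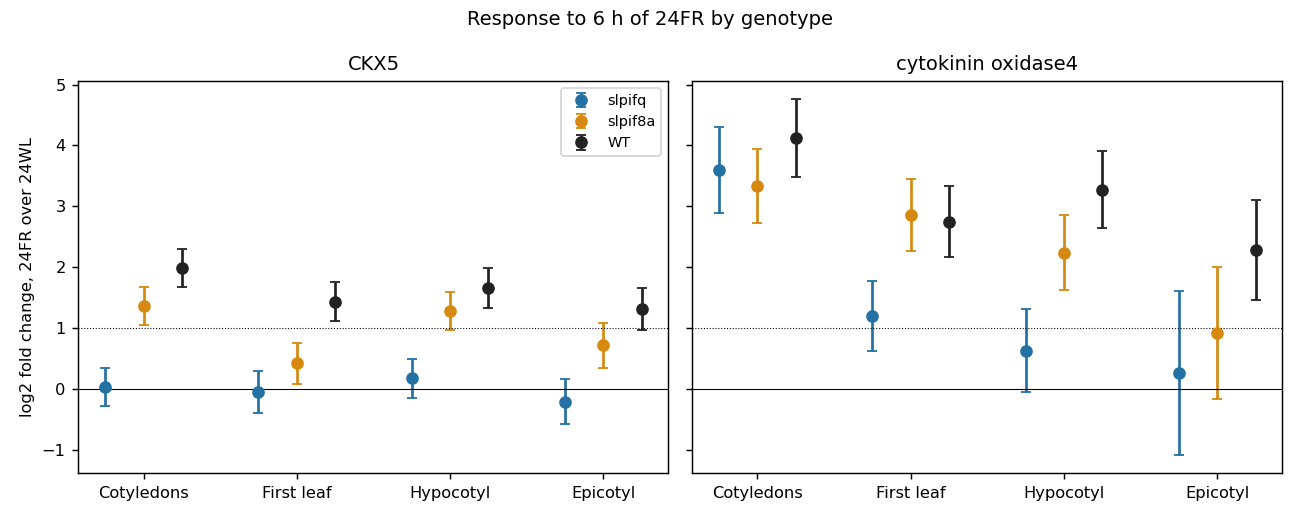
Log2 fold change of 24FR over 24WL after 6 h for *CKX5* (left) and cytokinin oxidase4 (right) by organ, with *slpifq*, *slpif8a* and WT from left to right. Points are fitted values, bars are ± 1 SE, and the dotted line is the threshold of 1; *CKX5* in *slpifq* lies between −0.21 and 0.17, while cytokinin oxidase4 in *slpifq* cotyledons is at 3.59 beside 4.13 in WT.

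The replicate numbers of cytokinin oxidase4 stood out at 6 h. Replicate 3 was the highest in 18 of the 24 groups of 6 h and replicate 1 the lowest in 20, whereas replicate 1 was never the highest. At 3 h each of replicates 1 and 3 was the highest in 3 of 8 groups, and at 24 h replicate 1 was the highest in 4 of 8. For *CKX5* at 6 h, replicate 1 was the highest in 11 of the 24 groups and replicate 3 the lowest in 13. Replicate 1 of cytokinin oxidase2 was the lowest in 16 and replicate 3 of Solyc08g061930 in 15. What the numbers mark is not stated in the sources used here. Within each number, 24FR exceeded 24WL for cytokinin oxidase4 in 3 of 3 pairs in every WT organ at 6 h. Any other pairing would give the same, since the lights did not overlap in these groups.

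**Figure D3:**
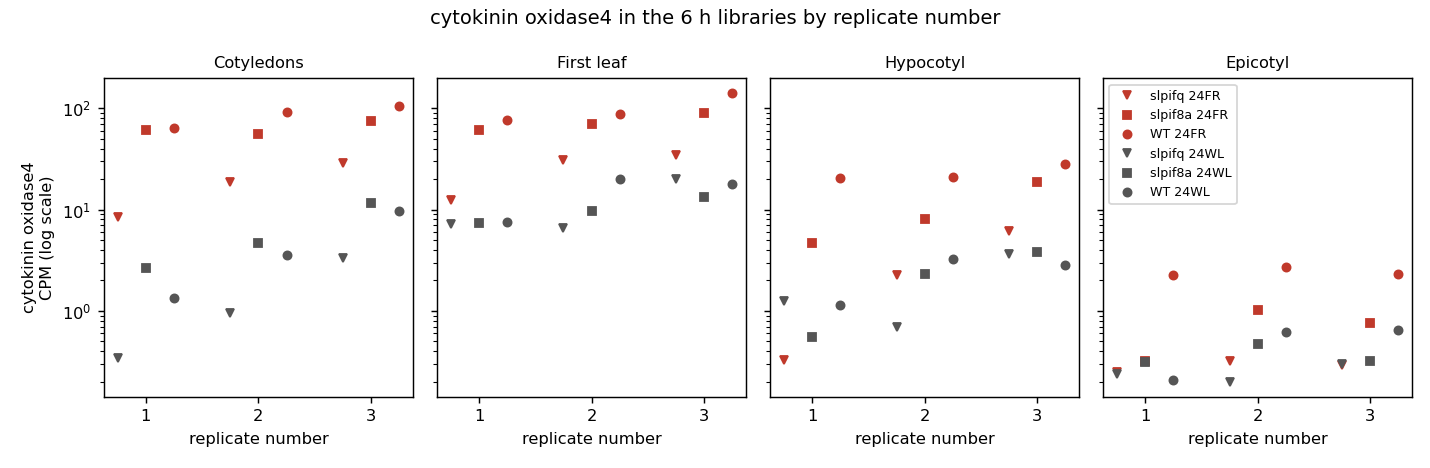
Cytokinin oxidase4 in all 72 libraries of 6 h by replicate number, in CPM on a log axis, with 1 panel per organ. Points are libraries, red in 24FR and grey in 24WL, with triangles for *slpifq*, squares for *slpif8a* and circles for WT; replicate 3 is the highest of its group in 18 of 24 groups.

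In the time course of WT, both genes were already called in all 4 organs after 3 h. Of all genes tested at 3 h, 0.819% were called higher in the cotyledons, 0.492% in first leaves, 0.71% in the hypocotyl and 0.429% in the epicotyl. In the cotyledons at 3 h *CKX5* stood at 29.8, 27.5 and 28.3 CPM in 24FR and at 6.47, 5.16 and 5.78 CPM in 24WL (log2 fold change 2.30, adjusted p = 3.47e-10). Its log2 fold changes in the other organs were 1.63 in first leaves (adjusted p = 3.21e-05), 1.18 in the hypocotyl (adjusted p = 0.00137) and 1.27 in the epicotyl (adjusted p = 0.00822). In none of the 4 organs did the lights overlap. The value in the hypocotyl fell under the threshold of 1 without 24WL replicate 3 (0.996, adjusted p = 0.0268). The call in the epicotyl was lost without 24WL replicate 2 (1.08, adjusted p = 0.0977) or 24FR replicate 3 (1.11, adjusted p = 0.0941).

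Cytokinin oxidase4 at 3 h had few reads in 24WL in the cotyledons and epicotyl. In the cotyledons it had 706, 473 and 549 counts in 24FR and 3, 7 and 10 counts in 24WL, an 86.3-fold ratio over the group (95% interval of 55.7 to 142, for counting error only). The fitted log2 fold change was 6.41 (adjusted p = 1.45e-14). In the epicotyl it had 90, 78 and 92 counts in 24FR and 1, 1 and 6 counts in 24WL, a 31.1-fold ratio (15.5 to 72.7), with a fitted log2 fold change of 4.89 (adjusted p = 3.24e-06). In the first leaf, where 24WL was well above the floor, it stood at 81.7, 82.2 and 69.1 CPM in 24FR and at 7.55, 7.60 and 7.29 CPM in 24WL (log2 fold change 3.38, adjusted p = 3.83e-11). In the hypocotyl 24FR gave 8.87, 8.35 and 4.23 CPM and 24WL gave 1.36, 0.474 and 0.751 CPM (log2 fold change 3.03, adjusted p = 5.72e-07). Leaving out any library kept the 4 calls of cytokinin oxidase4 at 3 h.

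After 24 h both genes were called in the cotyledons and first leaf, and in the hypocotyl only cytokinin oxidase4 was. *CKX5* in the cotyledons stood at 27.0, 41.9 and 39.2 CPM in 24FR and 4.63, 6.89 and 5.64 CPM in 24WL, a log2 fold change of 2.65 (adjusted p = 1.66e-12), and in first leaves the value was 1.46 (adjusted p = 0.000112). In the hypocotyl the levels of *CKX5* overlapped, at 3.25, 2.98 and 2.63 CPM in 24FR and 2.17, 2.90 and 2.58 CPM in 24WL (log2 fold change 0.21, adjusted p = 0.577). In the epicotyl the log2 fold change was 0.72, which passed the adjusted p (0.0306) but not the fold. Cytokinin oxidase4 was called higher in 24FR in 3 organs, with log2 fold changes of 5.54 in the cotyledons (adjusted p = 1.55e-15), 2.12 in first leaves (adjusted p = 8.43e-07) and 1.69 in the hypocotyl (adjusted p = 0.000217). In the epicotyl it was lower in each 24FR library, at 0.327, 0.391 and 0.479 CPM, than in any 24WL library, at 0.890, 0.674 and 0.838 CPM. This difference was not called (−1.0 ± 0.64, adjusted p = 0.181), although a fit to the epicotyl alone called it (−1.05, adjusted p = 0.0204). The 5 calls of 24 h compare with 1.59% of all genes tested called higher in the cotyledons, 0.607% in first leaves, 2.06% in the hypocotyl and 2.6% in the epicotyl. Leaving out any one library changed none of them.

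The changes of the response with time were tested directly. Of all genes tested, 3.8% had a response in the hypocotyl called lower at 24 h than at 6 h, and 10.9% one called in either direction. From 6 h to 24 h the response of *CKX5* in the hypocotyl fell by 1.43 on the log2 scale (−1.43 ± 0.37, adjusted p = 0.00655). That of cytokinin oxidase4 there changed by −1.58 ± 0.50 (adjusted p = 0.0318), which was not called without WT 6 h 24WL replicate 1, WT 6 h 24FR replicate 3, WT 24 h 24WL replicate 1 or 3, or WT 24 h 24FR replicate 3 (adjusted p = 0.0528 to 0.148). In the epicotyl the response of cytokinin oxidase4 changed by −3.28 ± 0.81 between 6 and 24 h (adjusted p = 0.00186) and by −5.89 ± 1.02 between 3 and 24 h (adjusted p = 7.40e-06). The 24WL libraries of the epicotyl at 3 h had only 1, 1 and 6 counts of cytokinin oxidase4. Responses called lower made up 8.35% of all genes tested in the epicotyl for 24 h against 6 h and 14.5% for 24 h against 3 h. In either direction 23% and 33.7% were called. Between 3 and 6 h no interaction of a member was called by edgeR among 16, and 4 had an unadjusted p under 0.05. Such interactions were called for 1.12% of all genes tested in the cotyledons, 0.298% in first leaves, 3.13% in the hypocotyl and 1.01% in the epicotyl. The 6 h libraries in this model are those of the genotype comparison, so that the 6 h responses above are not a second measurement. Without WT 6 h 24WL replicate 3 of the epicotyl, the response of *CKX5* in the epicotyl was also called lower at 24 h than at 6 h (−1.51, adjusted p = 0.00497).

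**Figure D4:**
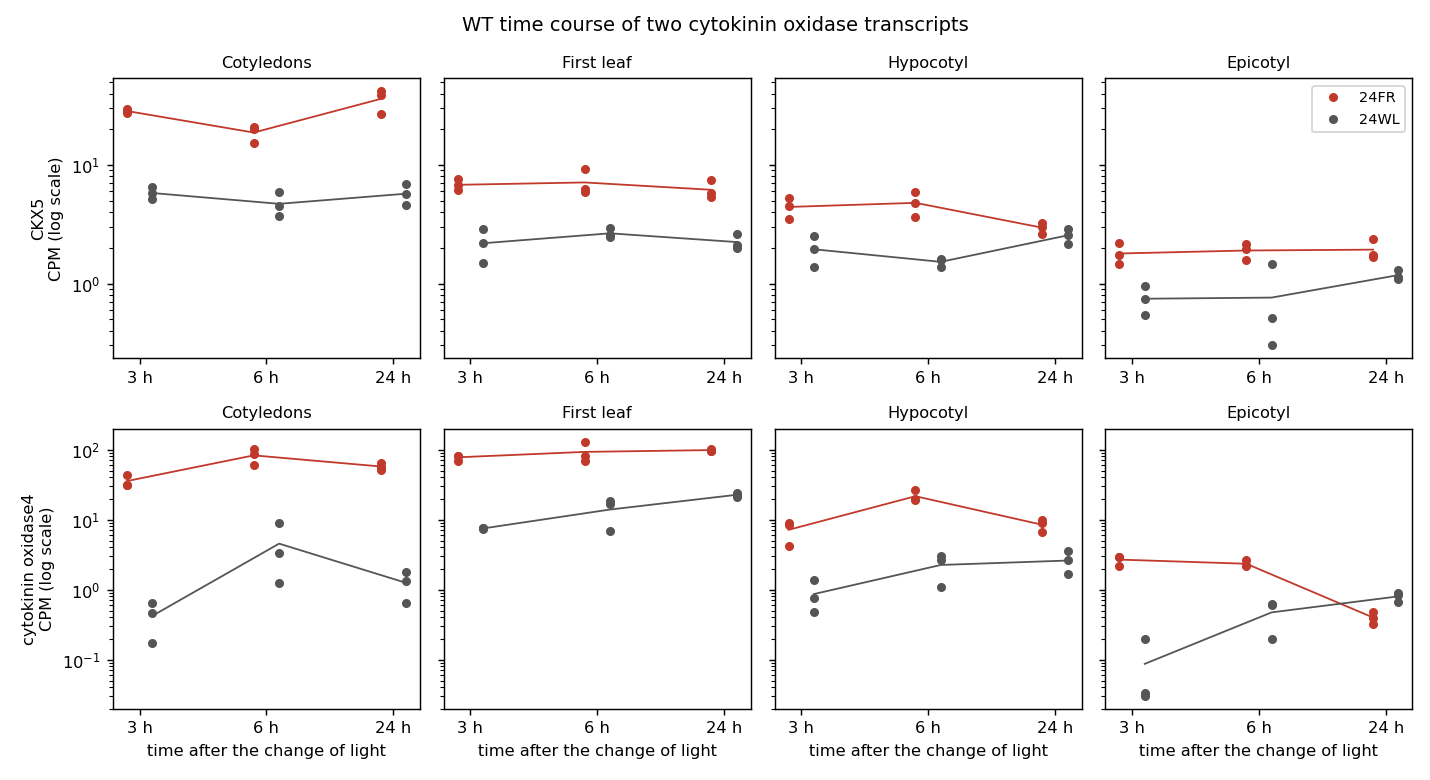
*CKX5* (top) and cytokinin oxidase4 (bottom) in WT organs after 3, 6 and 24 h, in CPM on log axes; the times are spaced evenly and not to scale. Points are libraries, lines join the means of 3, and 24FR (red) is drawn left of 24WL (grey); in the epicotyl the cytokinin oxidase4 points of 24FR lie above those of 24WL at 3 and 6 h and below them at 24 h.

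How far these changes lay in each light differed. From 6 to 24 h in the hypocotyl, mean cytokinin oxidase4 fell from 21.6 to 8.44 CPM in 24FR. Its 24WL replicates overlapped between these times, at 1.08, 3.03 and 2.64 CPM and then 3.52, 1.68 and 2.61 CPM. In the epicotyl its mean fell from 2.34 to 0.399 CPM in 24FR and rose from 0.473 to 0.801 CPM in 24WL. Mean *CKX5* in the hypocotyl fell from 4.79 to 2.96 CPM in 24FR and rose from 1.52 to 2.55 CPM in 24WL. The 24WL samples were taken at different hours of the day, so that time in 24WL and time of day cannot be told apart. Cytokinin oxidase4 in the cotyledons in 24WL was higher at 6 h than at 3 h by 3.51 on the log2 scale (adjusted p = 2.68e-06) and lower at 24 h than at 6 h (−1.94, adjusted p = 0.000435). Without WT 6 h 24WL replicate 3, the highest of its group, the second difference was −0.95 and not called (adjusted p = 0.114). In the hypocotyl in 24WL cytokinin oxidase4 was 1.35 higher at 6 h than at 3 h (adjusted p = 0.0276), a call lost without 24WL replicate 2 or 3 of either time (adjusted p = 0.0828 to 0.147). These were the 3 calls of the family for time in 24WL between successive times. In the epicotyl, with 55 counts over the 3 libraries of 6 h and 8 over those of 3 h, the log2 fold change of cytokinin oxidase4 from 3 to 6 h was 2.43 (adjusted p = 0.067). It was called by DESeq2's Wald test (2.44, adjusted p = 0.00204), in a fit to the epicotyl alone (2.44, adjusted p = 0.00222), and without WT 24WL replicate 3 of 3 h (3.73, adjusted p = 0.0496) or replicate 1 of 6 h (2.76, adjusted p = 0.0409). From 3 to 6 h in 24WL, 9.59% of all genes tested were called in the cotyledons, 7.87% in first leaves, 4.5% in the hypocotyl and 2.49% in the epicotyl. From 6 to 24 h the shares were 20.8, 16.5, 11.9 and 8.04% in the same order. Between 3 and 24 h, cytokinin oxidase4 in 24WL was called higher at 24 h in first leaves (1.60, adjusted p = 8.64e-05), hypocotyl (1.58, adjusted p = 0.00606) and epicotyl (3.15, adjusted p = 0.00426). There 5.49, 6.23 and 3.14% of all genes tested were called in either direction. *CKX5* was not called for time in 24WL, although its hypocotyl value of 0.74 for 24 h against 6 h passed the adjusted p (0.0207). Without WT 6 h 24WL replicate 3 of the epicotyl it was called higher there at 24 h than at 6 h (1.54, adjusted p = 0.000165).

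The other pair of expressed members was called between organs and passed the fold for light in no comparison. Cytokinin oxidase2 was not called for light in any of 20 comparisons of genotype, organ and time, with log2 fold changes of −0.69 to 0.68, and 2 of them had an unadjusted p under 0.05. In WT at 6 h in 24WL it stood at 25.6, 24.7 and 26.2 CPM in the hypocotyl, and the epicotyl had 3.05, 4.48 and 3.81 CPM. The epicotyl was lower than the hypocotyl by 3.05 at 3 h (−3.05, adjusted p = 3.01e-12), by 2.75 at 6 h (−2.75, adjusted p = 4.82e-11) and by 2.35 at 24 h (−2.35, adjusted p = 2.13e-09). The order of its levels in 24WL was hypocotyl, cotyledons, first leaf and epicotyl at each time. The cotyledons were called lower than the hypocotyl only at 24 h (−1.15, adjusted p = 0.000372), the first leaf higher than the epicotyl at 3 h (1.62) and 6 h (1.57) but not at 24 h (0.70), and the first leaf was not called against the cotyledons at any time. Between cotyledons and hypocotyl 38.3, 35.2 and 37.4% of all genes tested were called at 3, 6 and 24 h, and between first leaf and epicotyl 32.2, 29.2 and 30.4%. Without WT 6 h 24WL replicate 2 of the first leaf, however, the difference between first leaf and cotyledons was −1.01 (adjusted p = 0.00589).

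Solyc08g061930 was highest in the cotyledons, with 124, 144 and 134 CPM in WT at 3 h in 24WL. At that time the first leaf had 49.5, 53.0 and 52.0 CPM, the epicotyl 23.7, 23.7 and 24.8 CPM and the hypocotyl 13.9, 13.6 and 13.2 CPM. No organs overlapped at 3 h, whereas at 6 h the first leaf and epicotyl were not called apart (0.23, adjusted p = 0.0827). The first leaf against the cotyledons gave −1.38 at 3 h (adjusted p = 2.31e-14) and −1.25 at 6 h (adjusted p = 6.14e-13), and the value of −0.79 at 24 h passed the adjusted p only (1.23e-07). The epicotyl against the hypocotyl gave 0.82 at 3 h, 1.03 at 6 h and 0.64 at 24 h, of which only that of 6 h passed the fold (adjusted p = 5.20e-10), and not without WT 24WL replicate 1 of the epicotyl (0.95) or replicate 2 (0.94) or 3 (0.89) of the hypocotyl. For light, 5 of its 20 comparisons passed the adjusted p and none passed the fold. In 4 of these it was lower in 24FR, in the epicotyl in 3 and in the WT hypocotyl at 3 h (−0.47, adjusted p = 0.0163). The first leaf of WT at 24 h went the other way, with 71.3, 71.0 and 76.5 CPM in 24FR and 52.0, 58.3 and 53.3 CPM in 24WL, without overlap (log2 fold change 0.42, adjusted p = 0.0193). At 24 h in WT the epicotyl had 20.1, 22.0 and 19.7 CPM in 24FR and 36.4, 39.5 and 34.9 CPM in 24WL, without overlap (log2 fold change −0.84, adjusted p = 8.23e-08). At 6 h the log2 fold change in the epicotyl was −0.66 in *slpif8a* (adjusted p = 0.00607) and −0.55 in WT (adjusted p = 0.0268). The response in the epicotyl was lower at 24 h than at 3 h (interaction −0.78 ± 0.17, adjusted p = 0.000351), as was that of cytokinin oxidase4 there.

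**Figure D5:**
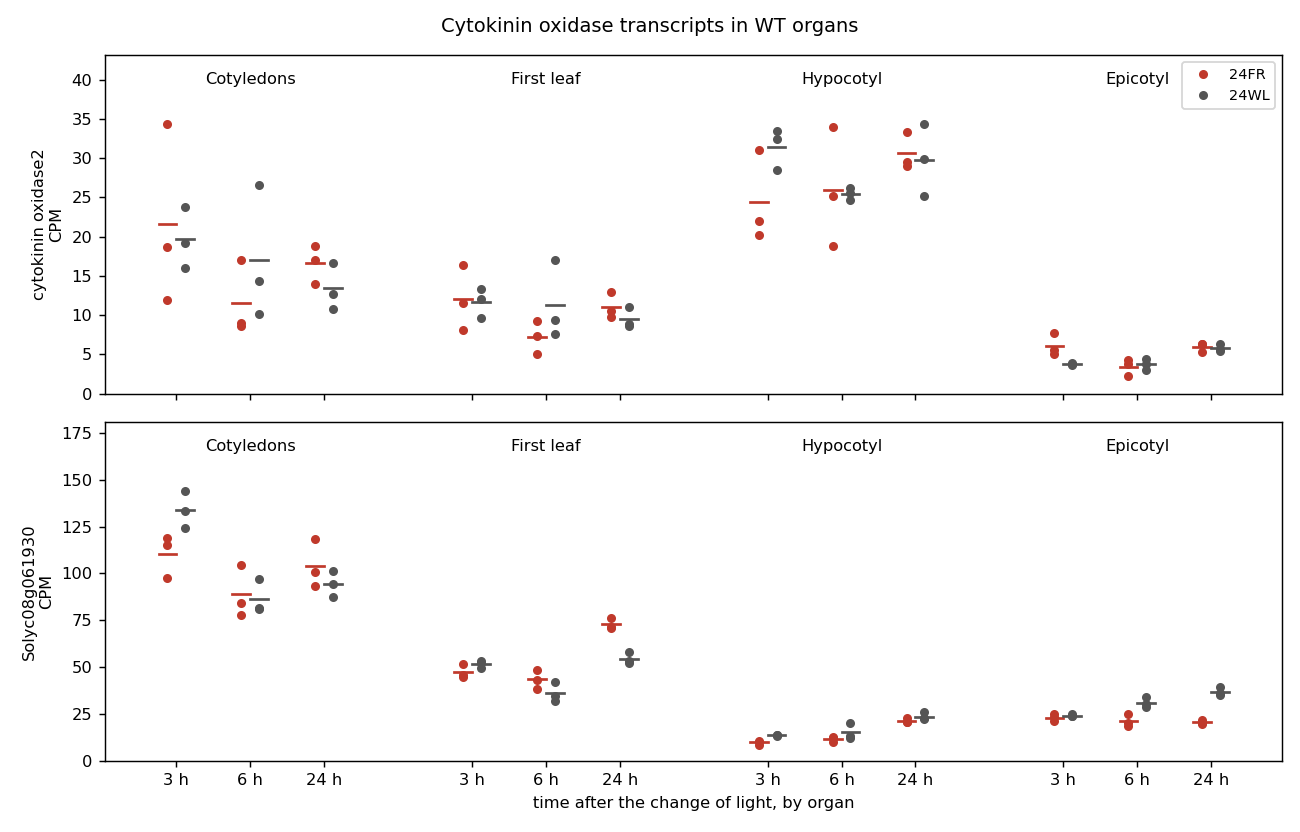
Cytokinin oxidase2 (top) and Solyc08g061930 (bottom) in WT organs by time, in CPM on linear axes from 0, with 24FR (red) left of 24WL (grey). Points are libraries and bars are means of 3; cytokinin oxidase2 is highest in the hypocotyl and lowest in the epicotyl, and Solyc08g061930 is highest in the cotyledons.

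The light-responsive pair also differed between organs in 24WL. *CKX5* was highest in the cotyledons and lowest in the epicotyl at each time. Its first leaf was called lower than its cotyledons at 3 h (−1.40, adjusted p = 1.32e-05) and at 24 h (−1.36, adjusted p = 2.13e-05), and at 6 h the value was −0.84. First leaf and hypocotyl were not called apart at any time. Its epicotyl was called lower than its hypocotyl at 3 h (−1.39, adjusted p = 9.95e-05) and at 24 h (−1.11, adjusted p = 0.000698). At 6 h that value was −0.99, and −1.91 without WT 24WL replicate 3 of the epicotyl. Cytokinin oxidase4 was highest in first leaves at each time. Its first leaf exceeded its cotyledons by 4.16 at 3 h (adjusted p = 8.17e-09), 1.54 at 6 h (adjusted p = 0.000118) and 4.19 at 24 h (adjusted p = 2.33e-12). Without WT 6 h 24WL replicate 3 of the cotyledons the 6 h value was 2.53. Its epicotyl was below its hypocotyl, with −3.28 at 3 h (adjusted p = 0.00123), −2.21 at 6 h (adjusted p = 0.000154) and −1.70 at 24 h (adjusted p = 0.00159). Between these 2 pairs of organs, 16 of 24 tests of the family were called, against 18.4, 16.6 and 14.1% of all genes tested at 3, 6 and 24 h between epicotyl and hypocotyl and 19.4, 19.2 and 18.4% between first leaf and cotyledons.

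The size of the response to light was compared between organs as an interaction. For cytokinin oxidase4 the response of the first leaf was lower than that of the cotyledons by 3.04 at 3 h (−3.04 ± 0.69, adjusted p = 0.0354) and by 3.41 at 24 h (−3.41 ± 0.53, adjusted p = 2.19e-05). At 3 h and 24 h, 0.143% and 0.83% of all genes tested had such an interaction called lower. In either direction 0.16% and 1.75% were called. The interaction at 3 h was lost without any 24WL replicate of the cotyledons or first leaf, or without 24FR replicate 2 or 3 of the first leaf (adjusted p = 0.0525 to 0.146). At 6 h the value was −1.38 (adjusted p = 0.308), and without 24WL replicate 3 of the cotyledons it was called (−2.37, adjusted p = 0.00757). At 24 h, 11.2% of all genes tested had a response called lower in the epicotyl than in the hypocotyl, and 25.4% were called in either direction. The response of the epicotyl was then lower than that of the hypocotyl for cytokinin oxidase4 (−2.69 ± 0.73, adjusted p = 0.00402) and for Solyc08g061930 (−0.70 ± 0.17, adjusted p = 0.00202). These made 4 calls of the family.

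The summed CPM of the 8 members shows what these changes amounted to in reads, without weighting by gene length or enzyme activity. In WT cotyledons at 6 h the sum was 214 ± 30.9 CPM in 24FR and 121 ± 18.6 CPM in 24WL (SD, n = 3). In *slpifq* cotyledons it was 118 ± 28.6 CPM in 24FR and 106 ± 12.1 CPM in 24WL. Cytokinin oxidase4 made up 40.9% of the sum in 24FR and 4.01% in 24WL in WT cotyledons, while in *slpifq* it was 15.9% in 24FR and 1.46% in 24WL. In the WT first leaf at 6 h the sum was 166 ± 32.2 CPM in 24FR and 70.6 ± 5.44 CPM in 24WL, and in *slpifq* it was 74.2 ± 12.3 CPM in 24FR and 66.3 ± 8.97 CPM in 24WL. In the WT epicotyl at 6 h the sum was 30.0 ± 2.42 CPM in 24FR and 37.4 ± 1.85 CPM in 24WL, of which Solyc08g061930 made up 73.4% in 24FR and 85.9% in 24WL. No test was made on these sums.

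Across the 24 groups of WT libraries, which share organs and lights, the tested gene whose mean log2 CPM was most like that of *CKX5* was Solyc05g008230, with Pearson's r of 0.919. Solyc02g083040 followed at 0.899 and Solyc06g051940 at 0.890. For cytokinin oxidase4 the most similar genes were Solyc01g073910, a homeobox-leucine zipper gene, at 0.840, Solyc04g007200 at 0.828 and Solyc02g067340 at 0.826. The pair themselves had r of 0.714.

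Of 13 other genes of cytokinin synthesis, activation and signalling, 11 were tested at 6 h. The study had listed 8 of the 13 as responding in these samples, so that their directions are not independent evidence. In WT at 6 h, 2 were called higher and 1 lower in 24FR in the cotyledons, 0 and 2 in first leaves, 1 and 0 in the hypocotyl and 2 and 0 in the epicotyl, all of them among those listed by the study. Beside the shares called higher given above, 1.33% of all genes tested were called lower in the cotyledons, 0.991% in first leaves, 2.15% in the hypocotyl and 1.08% in the epicotyl. The median log2 fold change of the 11 was −0.14 in the cotyledons, 0.0011 in first leaves, −0.10 in the hypocotyl and −0.022 in the epicotyl. Over all genes tested it was −0.020 in the cotyledons, −0.010 in first leaves, −0.0058 in the hypocotyl and −0.0089 in the epicotyl. Among the phosphoribohydrolases, which release active cytokinin from its nucleotide, Solyc04g081290 was called higher in 24FR in the cotyledons (1.09) and epicotyl (1.71). Another, Solyc09g007830, was called higher in the cotyledons (1.09) and hypocotyl (1.88). The response regulators, whose transcripts are commonly induced by cytokinin, included the called decreases, with Solyc05g006420 at −1.15 in the cotyledons and −1.25 in first leaves and response regulator 7 (Solyc06g048600) at −1.42 in first leaves. Cytokinin response factor 4 (Solyc03g007460) was called higher in the epicotyl (1.60). In *slpifq* at 6 h none of the 11 was called for light by edgeR in any organ, in 44 tests of which 14 had an unadjusted p under 0.05 and 3 passed the adjusted p but not the fold. In 24FR, *slpifq* against WT gave −1.73 for Solyc09g007830 in the hypocotyl, −1.10 for Solyc04g081290 in the epicotyl, and 1.70 in the cotyledons and 1.22 in first leaves for Solyc06g048600. In each organ 1 of the 11 was called in this comparison. Of all genes tested, 1.35% were called higher in the cotyledons and 0.367% in first leaves, and 0.939% lower in the hypocotyl and 0.458% in the epicotyl.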

How the data were processed

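Libraries were stranded and read from a single end. The authors merged the runs of a library, aligned its reads to SL4.0 (STAR v2.7.9a), counted them per gene on the reverse strand in intersection-strict mode (HTSeq v0.13.5) and deposited the raw counts of every gene. The deposited normalized signal values, CPM made by the authors with edgeR (v3.40.2), were used only as an alternative. Each table was analysed separately, with groups from the sample labels, in R 4.3.3 by edgeR 4.0.16: TMM scaling, genes with CPM above 5 in at least 3 libraries, 1 mean per group, the quasi-likelihood test and Benjamini-Hochberg adjustment over all genes tested. Interactions were called at an adjusted p under 0.05 alone. The 5 entries that name no gene held 8.54 to 17.0% of a library and were left out. Floors and count ratios cover counting error only, and 3 against 3 libraries allow no exact permutation p below 0.1.

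The members and lists were chosen with earlier results of these data known. All 8 members are described, those under the filter by counts, and the pathway genes by their annotation in the study's supplement. The genes most like *CKX5* and cytokinin oxidase4 are the 3 of highest Pearson's r. The alternatives were DESeq2 1.42.0 (Wald test, and its size factors in edgeR), no filter or CPM above 1, the libraries of the compared organs alone, a replicate block, limma 3.58.1 on log2 values of the deposited CPM plus 1, and each library left out. Fits without a library were given the negative binomial trend of all libraries, a setting not made in the main fit. No fit of all libraries was made with this setting, so its part in lost calls was not tested. Their TMM factors, means and quasi-likelihood dispersions were refitted. The scripts were tested on simulated data.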

Additional observations from a re-analysis of the deposited data

Results flagged for a closer look

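The 10 results below are differences between effects that passed a test of the difference itself. Between genotypes, the response of *CKX5* to 24FR in the cotyledons was lower in *slpifq* than in WT (−1.95, adjusted p = 0.00526). There 5.04% of all genes tested were called in either direction. A fit to the cotyledon libraries alone did not call that of *CKX5*.

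Between times in WT, the response in the hypocotyl was lower at 24 h than at 6 h for *CKX5* (−1.43, adjusted p = 0.00655) and for cytokinin oxidase4 (−1.58, adjusted p = 0.0318). That of cytokinin oxidase4 was not called in 5 of the 12 fits with a library left out. In the epicotyl the response of cytokinin oxidase4 was lower at 24 h than at 6 h (−3.28, adjusted p = 0.00186) and than at 3 h (−5.89, adjusted p = 7.40e-06). At 3 h its 24WL libraries there had 1, 1 and 6 counts. At 24 h the order of the lights was turned round, at 40 summed counts in 24FR and 79 in 24WL, but this difference was not called. The response of Solyc08g061930 in the epicotyl was also lower at 24 h than at 3 h (−0.78, adjusted p = 0.000351). Such changes were common, called in either direction for 10.9% of all genes tested in the hypocotyl between 6 and 24 h. In the epicotyl 23% were called for 24 h against 6 h and 33.7% for 24 h against 3 h.

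Between organs in WT, the response of cytokinin oxidase4 was lower in the first leaf than in the cotyledons at 3 h (−3.04, adjusted p = 0.0354) and at 24 h (−3.41, adjusted p = 2.19e-05). The difference at 3 h was not called in 8 of the 12 fits with a library left out. At 24 h the response of the epicotyl was lower than that of the hypocotyl for cytokinin oxidase4 (−2.69, adjusted p = 0.00402) and Solyc08g061930 (−0.70, adjusted p = 0.00202). Between epicotyl and hypocotyl at 24 h, 25.4% of all genes tested were called in either direction. Between first leaf and cotyledons the shares were 0.16% at 3 h and 1.75% at 24 h. The groups had 3 libraries each, so that single libraries far from their group were not sought by a rule.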

How the results depend on the processing

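The alternatives were run on 66 calls of the members, and none of these changed its direction under any of them or without any library. The calls between 24 h and 3 h in 24WL and those between cotyledons and hypocotyl or first leaf and epicotyl were not among them. Of the 66, 66 were kept under CPM above 1, DESeq2's size factors and the replicate block, and 65 under DESeq2's Wald test. Without a filter 64 were kept, in fits to the compared organs alone 57 and under limma 51. Why calls were lost under limma was not tested. Of the 66, 17 were lost without at least 1 library, in fits that also set the dispersion otherwise than the main fit.

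Counts of calls moved beyond 1.5 times in these cases. For *slpifq* against WT in 24FR limma called 5 in place of 8. For *slpifq* against *slpif8a* in 24FR the filter at CPM above 1 gave 2 in place of 1, and for the interaction of *slpifq* with light limma gave 2 in place of 1. Leaving out each library gave 0 to 2 calls for *slpif8a* against WT in 24FR, 0 to 2 for *slpifq* against *slpif8a* in 24FR and 1 to 2 for the interaction of *slpifq*.

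The replicate numbers were not taken to pair the libraries in the main fit. Each gene's group mean was subtracted from its log2 CPM, and what remained was correlated between 24FR and 24WL libraries. In these remainders every same-numbered pair correlated above 0.1 in only 2 of 12 comparisons of the genotypes and 1 of 12 of the times. However, 22 of 36 libraries correlated best with their own number, among the genotypes and among the times alike. The mean correlation was higher within than between numbers in every genotype comparison but the epicotyl of *slpif8a* (−0.012 against 0.0055). In first leaves of *slpifq* it was 0.312 within and −0.163 between numbers. Subtracting the group means makes the value between numbers fall as that within them rises, so the 2 are not separate results. Among the times, only the cotyledons and epicotyl at 3 h went the other way. The main fit had no term for the number, so any spread between numbers stayed in its error. Whether the numbers mark batches was not tested. With the replicate block the calls became 2 for light in *slpifq*, 3 for *slpif8a* against WT in 24FR, 4 for *slpifq* against *slpif8a* in 24FR and 2 for the interaction of *slpifq*. All 7 calls gained under the block were of cytokinin oxidase4. They were light in first leaves of *slpifq* (1.24, adjusted p = 0.0368), the interaction of *slpifq* in the hypocotyl (−2.82, adjusted p = 0.00394), *slpif8a* against WT in 24FR in the hypocotyl (−1.33, adjusted p = 0.0207) and epicotyl (−1.88, adjusted p = 0.0146), and *slpifq* against *slpif8a* in 24FR in the cotyledons, first leaf and hypocotyl (−1.97, −1.61 and −1.92, highest adjusted p = 0.0078).

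Of the 4 organs, the epicotyl had the fewest reads of *CKX5* and cytokinin oxidase4.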
